A study of Mus musculus with 4 samples.

Results

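Of the 566 mouse miRNAs measured, 6 of the miR-99, miR-100 and miR-125 families are covered here: mmu-miR-99a, mmu-miR-99b, mmu-miR-100, mmu-miR-125a-5p, mmu-miR-125b-5p and mmu-miR-125b-3p, written without mmu below. They were chosen by name, and the panel also held their relatives miR-125a-3p and miR-351. The assay was the nCounter miRNA panel of nanoString, in which each miRNA is joined to a coloured barcode and barcodes are counted one by one. The 4 samples were epidermal cells that had been loosened with trypsin and scraped off the back skin of adult mice. The 2 oncogenic samples came from R26stoprtTA/+ Col-tetO-YAPS127A/+ mice that also carried K14-Cre, which acts in basal keratinocytes. In these cells doxycycline switches on YAP S127A, a constitutively active form of the Hippo pathway coactivator YAP. The 2 normal samples came from mice with both of those alleles but no Cre. Both groups drank doxycycline at 1 mg/ml for 8 days. The titles call the oncogenic samples tumours, whereas the condition label calls them oncogenic epidermal cells. The protocols name 6 control animals and do not tie animals to samples, so a p-value here reflects how these particular samples vary, and that variation may be technical.

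Mammals carry this group of miRNAs in 3 related clusters, in each of which a miR-99 or miR-100 gene, a let-7 gene and a miR-125 gene lie in that order. miR-99 and miR-100 are known to repress Mtor and other growth signalling genes. miR-125 is the relative of worm lin-4, and in mammals it is known to restrain differentiation of stem cells and, in mouse skin, to hold hair follicle stem cells back from their lineages. Members with the same seed, the bases that pair with targets, are expected to bind largely the same messages, so paralogs from different loci may stand in for each other.

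The mature sequences of 5 members, from RefSeq (GRCm38.p6), are given 5′ to 3′ with the seed, bases 2 to 8, in capitals. They show which probes form a seed family and how little separates the paralogs that the ratios below compare.
miR-99b: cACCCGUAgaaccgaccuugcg
miR-99a: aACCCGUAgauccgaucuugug
miR-100: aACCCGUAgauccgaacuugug
miR-125a-5p: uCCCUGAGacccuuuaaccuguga
miR-125b-5p: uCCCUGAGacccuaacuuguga
The probe names without an arm were read as the 5p miRNA, as RefSeq names them. The name miR-125b-3p does not say from which of 2 hairpins it comes, and no sequence is given for it.

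The sequences fall into 2 seed families, miR-99b, miR-99a and miR-100 on one side and miR-125a-5p and miR-125b-5p on the other. Between miR-99a and miR-100 the only difference is U16A, with miR-99a's base first and positions counted from the 5′ end. miR-99b differs from miR-99a at 4 positions, C1A, A11U, C16U and C21U. miR-125a-5p, of 24 bases, and miR-125b-5p, of 22 bases, share their first 13 and last 5 bases. Probes for such close relatives may share signal, and how far they do was not tested. The assay's probes also need not be equally efficient, so a ratio between 2 miRNAs is read here only for how it differs between samples.

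On GRCm38.p6, miR-99b (chr17:17830194-17830215) and miR-125a-5p (chr17:17830817-17830840) lie with let-7e on the + strand of chromosome 17, within 683 bases and inside the span of the protein-coding gene Spaca6. miR-99a (chr16:77598940-77598961) lies on the + strand of chromosome 16 with let-7c and the first source of miR-125b-5p, Mir125b-2 (chr16:77646279-77646300). miR-100 (chr9:41531437-41531458) lies on the + strand of chromosome 9 inside the long non-coding RNA gene Mir100hg, with Mirlet7a-2 and the other source of miR-125b-5p, Mir125b-1 (chr9:41581940-41581961). The mature miR-125b-5p of both genes is identical, so its value cannot be split between chromosomes 16 and 9.

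Values below are normalized counts, barcode counts multiplied by 1 factor per sample by the authors. The miRNA counts behind them summed to 230284 and 53709 in the oncogenic samples and to 189058 and 156092 in the normal samples, which makes oncogenic replicate 2 the shallowest. Viral probes, which have no target in these cells, reached up to 18.3 and 22.9 normalized counts in the oncogenic samples and up to 17.6 and 27.6 in the normal samples, and values under 30 were treated as not above background. A miRNA was tested if it reached 30 in at least 2 samples, which left 124, and the test was limma, two-sided, on log2(value + 1). Of the 7 keratinocyte miRNAs listed, all were at 30 or more in all samples, led by miR-205 at 25839 and 23078 in oncogenic and 23262 and 40291 in normal cells.

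miR-125a-5p was higher in both oncogenic samples, miR-125b-5p and miR-100 were lower in both, and miR-99b and miR-99a overlapped between the groups. No member passed the test on its own level. Of the 124 tested miRNAs 4.03% passed an adjusted p of 0.05, and 0 of the 5 tested members did, nor did any in edgeR on the recovered counts, while DESeq2 called miR-125a-5p (adjusted p = 0.0109). At an unadjusted p under 0.05 in limma 1 member was higher and 2 were lower, against 3.23% and 21% of all tested miRNAs. The samples of the groups did not overlap for 3 of these 5 members, against 51.6% of all tested miRNAs. miR-100 counts among the lower members and among these 3, although it entered the test through its normal samples alone. The median log2 difference, oncogenic minus normal, was -0.28 over the 5 tested members and -0.19 over all 124.

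Of the locus on chromosome 17, miR-125a-5p had 763 and 805 normalized counts in the oncogenic samples, against 394 and 297 in the normal samples. The groups did not overlap, and both oncogenic samples lay close together. Its mean was 784 ± 29.3 in oncogenic and 345 ± 68.2 in normal cells (SD, n = 2 each), a log2 difference of 1.19 (SE 0.26, 95% interval 0.50 to 1.89, limma adjusted p = 0.0998). That difference ranked 4 of 124 from the highest, and it passed the threshold in 5 of 20 alternative settings.

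miR-99b, cut from the same stretch of chromosome 17, had 114 and 255 normalized counts in the oncogenic samples, against 60.6 and 172 in the normal samples. In each group replicate 2 had more than double replicate 1, so the spread within each group was wider than the gap between the group means. The log2 difference was 0.73 (SE 0.69, 95% interval -1.13 to 2.59, limma adjusted p = 0.652), and without normal replicate 1 it was -0.02.

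miR-125b-5p had the highest values of the members, with 1256 and 1127 normalized counts in the oncogenic samples and 2147 and 2108 in the normal samples. The groups were well apart, with little spread within either. Means were 1192 ± 91.1 in oncogenic and 2127 ± 27.8 in normal cells (SD, n = 2 each), a log2 difference of -0.84 (SE 0.23, 95% interval -1.45 to -0.23, limma adjusted p = 0.148).

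miR-100, which differs from miR-99a by a single base, stood at 20.1 and 7.05 normalized counts in the oncogenic samples, against 34.3 and 62.9 in the normal samples. These values rest on 23 and 4 barcodes in the oncogenic samples and on 39 and 73 in the normal samples. In oncogenic replicate 2 the value was below the highest viral probe and in oncogenic replicate 1 just above it, and as both were under 30 the level there is given as a bound. With values under 30 raised to 30, miR-100 was at least 1.55-fold lower in oncogenic cells, and leaving out normal replicate 2 or normal replicate 1 made this bound 1.14 or 2.10. miR-100 reached 30 in the normal samples only, so it entered the test through the group in which it was high. The fitted log2 difference of -1.86 (SE 0.66, limma adjusted p = 0.178) is therefore no separate support for its direction.

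miR-99a had 252 and 345 normalized counts in the oncogenic samples, against 311 and 415 in the normal samples. The groups overlapped, and again replicate 2 was the higher in both. The log2 difference was -0.28 (SE 0.31, 95% interval -1.12 to 0.55, limma adjusted p = 0.702), near the median of all tested miRNAs.

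miR-125b-3p, the other arm of a miR-125b hairpin, was too low to test, at 5.24 and 7.05 normalized counts in the oncogenic samples and 6.15 and 4.31 in the normal samples. All 4 values were below the highest viral probe. The other arm of the miR-125a hairpin, miR-125a-3p, was also under 30 in all samples, at 18.3 and 28.2 in oncogenic and 27.2 and 19.8 in normal cells, a probe singled out after its values were seen.

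**Figure D1:**
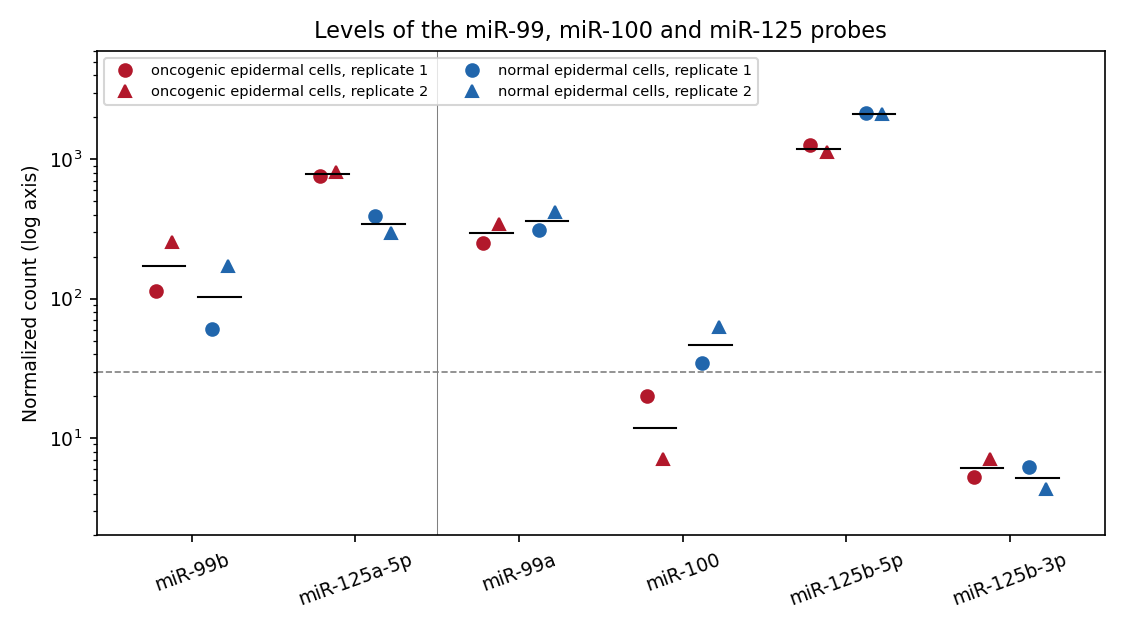
Normalized counts (log axis) of the 6 members in each sample, with members of the chromosome 17 locus left of the vertical line; points are samples, short bars geometric means of the 2 samples of a group, and the dashed line is the minimum of 30. miR-125a-5p lay higher in both oncogenic samples (763 and 805) than in the normal samples (394 and 297), miR-125b-5p lay lower, and miR-100 was under 30 in both oncogenic samples.

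Because all miRNAs of a sample carry the same factor, the ratio of paralogs within a sample does not depend on how samples were scaled against each other. Relative to miR-125b-5p, miR-125a-5p was higher in oncogenic than in normal cells. miR-125a-5p over miR-125b-5p was 0.608 and 0.714 in the oncogenic samples, against 0.183 and 0.141 in the normal samples. Every oncogenic ratio was thus above every normal ratio, with a gap wider than the spread within either group.

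The test of this ratio was limma on the log2 ratio of each tested miRNA to miR-125b-5p, in which 4.07% of 123 miRNAs passed. miR-125a-5p rose relative to miR-125b-5p by 2.03 on the log2 scale (SE 0.23, 95% interval 1.38 to 2.68, adjusted p = 0.0498), 4.09-fold on the scale of value + 1. It was 1 of the 4 other members in that fit to pass, and its rise ranked 4 of 123. That rank repeats the rank of its level difference, as every ratio in the fit shares 1 denominator. miR-99b and miR-99a had log2 differences of 1.57 and 0.55 relative to miR-125b-5p (limma adjusted p = 0.238 and 0.313). The median over all ratios to miR-125b-5p was 0.65. An exact two-sided permutation test over the samples gave p = 0.33, the smallest that 2 against 2 samples allow.

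The call on miR-125a-5p over miR-125b-5p was close to the threshold and was lost in 6 of 12 alternative settings, while the difference itself stayed between 1.84 and 2.22. The adjusted p was 0.0672 in limma without a mean-variance trend, 0.0507 in edgeR on the recovered counts, 0.315 and 0.251 without normal replicate 1 or 2, and 0.152 and 0.171 without oncogenic replicate 1 or 2. In such fits the lone sample of a group is assumed to vary like the other group.

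In the miR-99 and miR-100 family the ratios pointed the same way with wider spread. miR-99b over miR-99a was 0.451 and 0.740 in the oncogenic samples, against 0.195 and 0.415 in the normal samples. The groups did not overlap, but oncogenic replicate 1 exceeded normal replicate 2 by little, and in each group replicate 2 had the higher ratio. The log2 difference was 1.02 (SE 0.59, 95% interval -0.35 to 2.38) and did not pass (limma adjusted p = 0.645 on ratios to miR-99a, of which 3.25% passed). The median over all ratios to miR-99a was 0.09.

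miR-99b over miR-100 was 5.65 and 36.2 in the oncogenic samples, against 1.77 and 2.74 in the normal samples. The value of oncogenic replicate 2 rests on 4 miR-100 barcodes, whose exact Poisson interval runs from 1.09 to 10.2 barcodes. The fitted log2 difference was 2.59 (SE 1.07, limma adjusted p = 0.120 on ratios to miR-100, of which 7.32% passed). The median over all ratios to miR-100 was 1.67, so much of this rise is shared by other miRNAs. With miR-100 raised to 30 where it was lower, the ratio was at least 2.58-fold higher in oncogenic cells. That bound was 1.72 without oncogenic replicate 2. The fitted log2 difference was 1.32 without oncogenic replicate 2 and 3.87 without oncogenic replicate 1. The second passed (limma adjusted p = 0.0122), but its oncogenic side is then 1 library with 4 miR-100 barcodes, and its spread comes from the normal samples alone.

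miR-99a over miR-100, both outside chromosome 17, was 12.5 and 49.0 in the oncogenic samples, against 9.08 and 6.60 in the normal samples. The log2 difference was 1.58 (SE 0.98, limma adjusted p = 0.193), below the median of 1.67 over all ratios to miR-100. It was 0.66 without oncogenic replicate 2, and the bound with miR-100 at 30 was 1.27-fold. At that bound the groups overlapped, with ratios of 8.39 and 11.5 in oncogenic and 9.08 and 6.60 in normal cells. In the same fit miR-125a-5p rose relative to miR-100 by 3.06 on the log2 scale (adjusted p = 0.0448), at least 3.55-fold by the bound, which was 2.27 without normal replicate 2 and 5.53 without normal replicate 1. That call was the only one among the 4 other members in the limma fit of ratios to miR-100. It was lost in 7 of 12 alternative settings, among them leaving out normal replicate 1 or 2 (log2 differences 3.69 and 2.43) or oncogenic replicate 2 (2.33). With the mean of the negative control probes subtracted, 0 of 123 ratios to miR-100 passed. As miR-100 was under 30 in both oncogenic samples, the call rests on values treated as not above background, and only the bound is read.

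Taken as loci, the mean log2 level of miR-99b and miR-125a-5p minus that of miR-99a, miR-100 and miR-125b-5p was 0.65 and 1.63 in the oncogenic samples, against -0.88 and -0.75 in the normal samples. The sign differed between the groups, although the zero of this scale depends on probe efficiencies. The difference of 1.96 on the log2 scale could not go below p = 0.33 in the exact two-sided permutation test, which is what it gave. It was 1.47 without oncogenic replicate 2, the shallow sample in which miR-100 was lowest, and 2.45 without oncogenic replicate 1. With miR-100 raised to 30 where it was lower, the values were 0.47 and 0.99 in the oncogenic samples against the same -0.88 and -0.75 in the normal samples, a difference of 1.54.

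**Figure D2:**
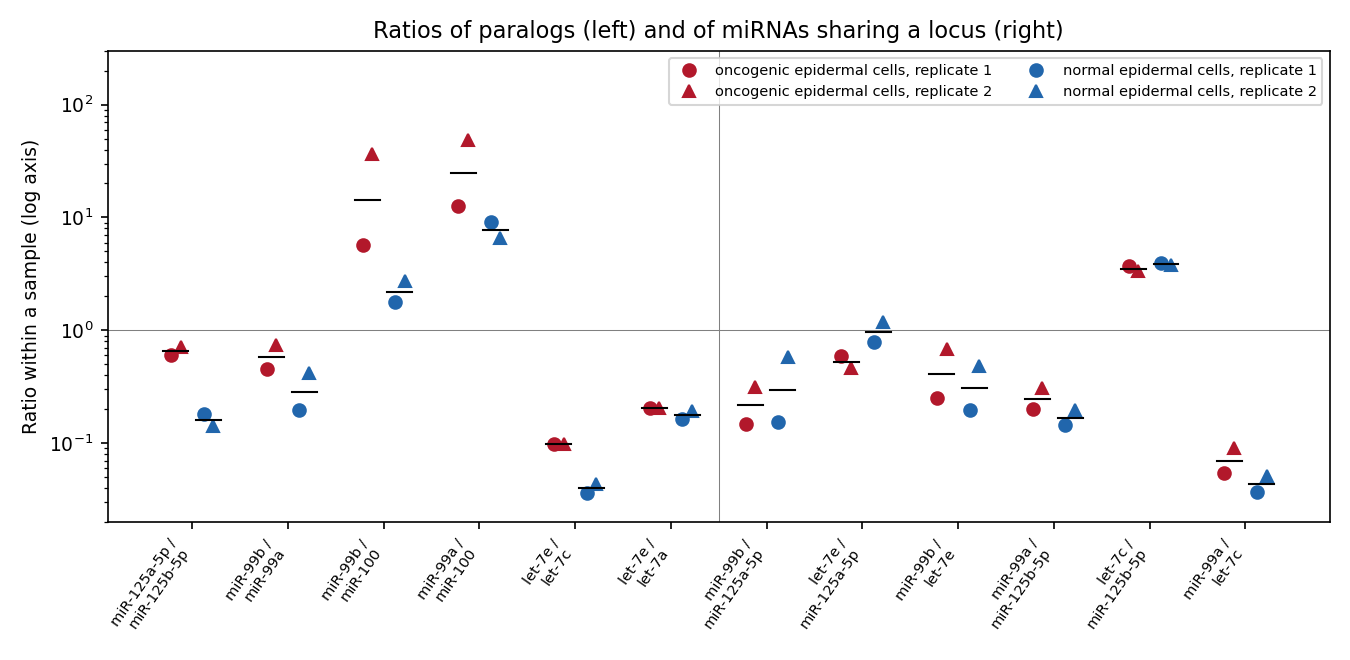
Within-sample ratios (log axis) of paralogs from different loci, left of the vertical line, and of miRNAs that share a locus, right of it; points are samples and short bars geometric means of a group. miR-125a-5p over miR-125b-5p and let-7e over let-7c separate the groups with little spread (0.608 and 0.714 against 0.183 and 0.141 for the first), while miR-99b over miR-125a-5p overlaps.

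The make-up of each seed family differed as the ratios did. miR-125a-5p supplied 37.8% (exact binomial 95% interval 35.8 to 39.8) and 41.7% (38.7 to 44.6) of the summed miR-125a-5p and miR-125b-5p counts in the oncogenic samples, against 15.5% (14.2 to 16.9) and 12.4% (11.2 to 13.6) in the normal samples. These intervals cover counting error only. A share of counts, like a ratio, depends on probe efficiencies, so it is read here only for how it differs between samples. On the deposited scale the family's sum was lower in both oncogenic samples, at 2020 and 1932 normalized counts, against 2540 and 2405 in the normal samples, a ratio of means of 0.799. That direction depended on the scaling, with ratios of 1.17 after centring, 1.07 with the 100 most abundant miRNAs and 1.11 with quantile normalization, and of 0.604 to 0.812 with the other 4.

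miR-99b supplied 29.5% and 42.0% of the summed miR-99b, miR-99a and miR-100 counts in the oncogenic samples, against 14.9% and 26.5% in the normal samples. miR-100 supplied 5.22% and 1.16% in the oncogenic samples, against 8.44% and 9.67% in the normal samples. Its oncogenic shares rest on values under 30. The family's sum overlapped between the groups, at 385 and 608 normalized counts in oncogenic and 406 and 650 in normal cells, and the ratio of means, 0.940, was 1.43 after centring and 0.693 with mRNA scaling. miR-99a remained the largest share in all 4 samples, from 56.8% to 76.6%. The only other panel probe with a member's seed, miR-351, a rodent relative of miR-125, had at most 3.45 normalized counts in any sample.

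**Figure D3:**
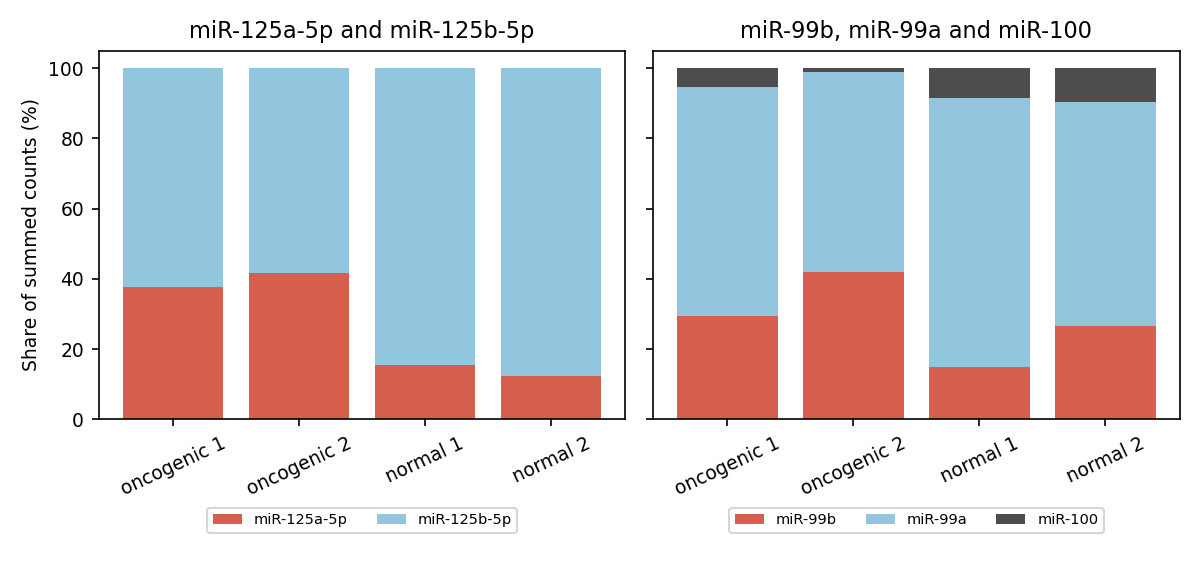
Share of the summed barcode counts (percent) held by each member of the miR-125 5p pair (left) and of the miR-99 and miR-100 family (right), 1 bar per sample. The miR-125a-5p share was 37.8% and 41.7% in oncogenic and 15.5% and 12.4% in normal cells, and miR-99a was the largest share of its family in every sample.

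Each cluster also carries a let-7 gene, whose products oppose growth and stem cell programmes, so the let-7 probes were read beside the members. The let-7 sequences are close relatives too, and how far their probes share signal was not tested. A let-7 ratio is therefore no separate support for a difference between loci. let-7e, from chromosome 17, had 456 and 377 normalized counts in the oncogenic samples, against 309 and 354 in the normal samples. Both oncogenic values were the higher, by a narrow margin (log2 difference 0.32, SE 0.26, limma adjusted p = 0.558), and with mRNA scaling the difference was -0.08. let-7c, which RefSeq places on chromosome 16 with miR-99a and also on chromosome 15, had 4632 and 3801 in the oncogenic samples, against 8469 and 8055 in the normal samples (log2 difference -0.98, limma adjusted p = 0.148). let-7a, a product of chromosome 9 and of other loci, overlapped between the groups, at 2213 and 1848 in oncogenic and 1893 and 1850 in normal cells. None of these 3 let-7 miRNAs passed the test on its level (unadjusted p under 0.05 for let-7c alone).

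let-7e over let-7c was 0.0984 and 0.0992 in the oncogenic samples, against 0.0365 and 0.0439 in the normal samples. This ratio was nearly equal in both oncogenic samples and stood 2.46-fold above normal by the mean of log2 ratios. let-7e over let-7a differed by 1.16-fold, at 0.206 and 0.204 in oncogenic and 0.163 and 0.191 in normal cells. Relative to miR-125b-5p, let-7e had a log2 difference of 1.16 (SE 0.19, limma adjusted p = 0.0603) and let-7a, which RefSeq does not place on chromosome 17, one of 0.95 (SE 0.15, limma adjusted p = 0.0588), and neither passed.

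Within a locus the products did not keep a fixed ratio. miR-99b over miR-125a-5p, which lie less than a kilobase apart, was 0.149 and 0.317 in the oncogenic samples, against 0.154 and 0.580 in the normal samples. The groups overlapped, and replicate 2 had the higher ratio in both. let-7e over miR-125a-5p was 0.597 and 0.468 in the oncogenic samples, against 0.786 and 1.19 in the normal samples, so that let-7e did not follow miR-125a-5p in full. miR-99b over let-7e overlapped, at 0.249 and 0.678 in oncogenic and 0.196 and 0.487 in normal cells.

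Among products of chromosomes 16 and 9, let-7c over miR-125b-5p was the steadiest ratio, at 3.69 and 3.37 in the oncogenic samples and 3.94 and 3.82 in the normal samples. miR-99a over miR-125b-5p was 0.200 and 0.306 in oncogenic and 0.145 and 0.197 in normal cells, and miR-99a over let-7c was 0.0543 and 0.0908 in oncogenic and 0.0367 and 0.0515 in normal cells. Both were higher in oncogenic cells, by 1.47-fold and 1.62-fold by the mean of log2 ratios. In all, 12 such ratios were computed, and 10 did not overlap between the groups, against 54.2% of the ratios of all pairs of tested miRNAs. With values under 30 raised to 30, 9 of the 12 did not overlap, against 53.3% of all pairs. Each of the 10 had an exact two-sided permutation p of 0.33, which no adjustment can bring under the threshold.

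The profiles most like each member over the 4 samples, by root mean square distance of log2 values centred on their own mean, differed between the members. Nearest to miR-125b-5p were let-7c (distance 0.08), miR-16 (0.09) and miR-10a (0.11). Nearest to miR-125a-5p were miR-130a (0.29), let-7i (0.30) and miR-221 (0.30), each higher in both oncogenic samples. miR-99b was nearest to miR-103 (0.25), miR-1224 (0.30) and miR-2141 (0.35), and miR-99a to miR-374 (0.07), miR-93 (0.17) and miR-15a (0.18). miR-100 was nearest to miR-200a (0.27), miR-26b (0.39) and miR-676 (0.40). No member had another member among its 3 nearest profiles. With 4 samples of the same libraries these distances are a description.

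The sign of the fitted difference of 4 members did not depend on the scaling between samples. Under the deposited values and 7 other scalings, miR-125a-5p had log2 differences from 0.79 to 1.73 and miR-99b from 0.32 to 1.27, all positive. miR-125b-5p had differences from -1.25 to -0.27 and miR-100 from -2.25 to -1.33, all negative. miR-100 was under 30 in both oncogenic samples, and it entered the test through its normal samples alone. Its sign here is therefore no separate support for its direction. miR-99a changed sign, from -0.69 with mRNA scaling to 0.25 with each sample centred on its median. Over the same scalings the median of all tested miRNAs ran from -0.60 to 0.34. The order of the 5 members stayed as it was, but 1 factor per sample shifts all miRNAs nearly alike. Only quantile normalization could have changed that order by much.

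**Figure D4:**
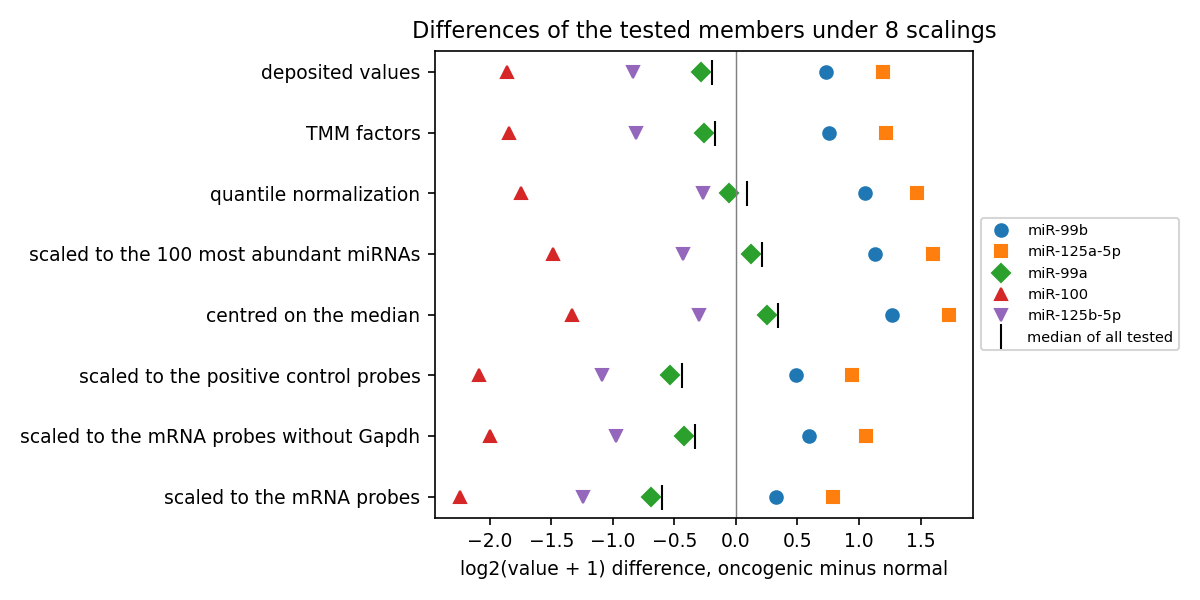
Log2 differences, oncogenic minus normal, of the 5 tested members under the deposited values and 7 other scalings, with the median of all 124 tested miRNAs as a black tick. miR-125a-5p and miR-99b lay right of 0 and miR-125b-5p and miR-100 left of it in each, while miR-99a ran from -0.69 to 0.25 beside the median. The differences of miR-100 rest on oncogenic values under 30.

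Markers of other cell types also differed between the groups, and since these are bulk samples, fewer cells of a type and less RNA per cell cannot be told apart. The summed level of 3 red blood cell miRNAs was 46.3 and 47.6 in oncogenic against 942 and 814 in normal cells, that of 2 endothelial miRNAs 11.4 and 17.6 against 223 and 400, and that of 2 melanocyte miRNAs 28.0 and 17.6 against 345 and 171. In each of these 3 lists 1 member passed the test, and it was lower. All oncogenic values in these 3 lists were under 30. miR-486, miR-126-5p and miR-211 were under 30 in all samples, so the endothelial and melanocyte sums rest on miR-126-3p and miR-204. The sum of 6 white blood cell miRNAs was 334 and 440 in oncogenic against 621 and 492 in normal cells, with 1 of 5 tested members lower, and that of 6 fibroblast and smooth muscle miRNAs was 161 and 82.8 against 221 and 218, with 0 of 2 past the test. miR-142-5p of the white blood cell list was under 30 in all samples. So were miR-143, miR-145 and miR-214 of the fibroblast and smooth muscle list and all 3 skeletal muscle miRNAs. No marker was at 0. The sum of the 7 keratinocyte miRNAs, mostly miR-205, was 40376 and 34277 in oncogenic against 41068 and 58005 in normal cells, with 0 past the test. All but miR-200c, 6 of the 7, had a negative difference. miR-200a was at 746 and 338 in oncogenic against 1742 and 1916 in normal cells, and miR-200b at 1087 and 733 against 2326 and 2251. On the deposited scale the sums of every list but skeletal muscle were lower in both oncogenic samples, as miR-125b-5p and miR-100 were, and the part of these cell types in the values of the members was not tested.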

How the data were processed

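Total RNA of 2 oncogenic and 2 normal samples was measured with the nanoString nCounter miRNA assay, per the labels' protocols. The deposited signal was normalized by the authors, by a method and with software not given in the sources used here. Within a sample, every miRNA, mRNA and viral value proved to be a whole barcode count times 1 factor (0.874 and 1.76 in oncogenic, 0.878 and 0.861 in normal samples). 100% of these values came out whole within 0.1 count. Control probes are unscaled counts.

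Groups follow the condition label. limma (3.58.1, R 4.3.3; lmFit, eBayes with trend) was run on log2(value + 1) of miRNAs that reached 30 in at least 2 samples, and on log2 ratios to miR-125b-5p, miR-99a or miR-100 within samples, with Benjamini-Hochberg adjustment over all miRNAs of a fit. Single values had an exact two-sided permutation test over 6 splits. edgeR (4.0.16) quasi-likelihood and DESeq2 (1.42.0) were run on the recovered counts as alternatives, and called 4 and 11 miRNAs where limma called 5. limma was also run on simulated counts, with planted changes larger than those in the members' levels and no shared deviation of same-numbered samples. That run does not bear on the calls here. Named miRNAs are the members, the let-7 miRNAs of their clusters, panel miRNAs with a member's seed and, for each tested member, the 3 nearest profiles. The members and lists were chosen with earlier results of these data known. RefSeq sequences were matched by name for 5 of 6 members.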

Additional observations from a re-analysis of the deposited data

How the results depend on the processing

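The number of miRNAs past the threshold, 5 with the deposited values, was 8 with centring or the 100 most abundant miRNAs, 3 with quantile normalization or positive control scaling and 11 with DESeq2, and was 3 or 1 without normal replicate 1 or 2 and 26 or 10 without oncogenic replicate 1 or 2. The difference of miR-99a was positive with centring (0.25), the 100 most abundant miRNAs (0.12) and DESeq2 (0.056), and that of miR-99b ran from -0.016 without normal replicate 1 to 1.48 without normal replicate 2. miR-125a-5p over miR-125b-5p missed the threshold at a difference of 2.03 without the trend and 2.03 in edgeR, and at 1.84 to 2.22 when single samples were left out. miR-99b over miR-100 passed at 2.59 without the trend (limma adjusted p = 0.0277), a setting in which 38 of 123 ratios to miR-100 passed, against 9 with the trend. Its difference ran from 1.32 to 3.87 when single samples were left out. miR-99b over miR-99a (0.48 to 1.55) and miR-99a over miR-100 (0.58 to 2.50) stayed positive and short of the threshold in all 12 alternatives. The cause of these changes was not tested. Same-numbered samples deviated together (r = 0.66 across 124 miRNAs, which are not independent replicates), but with 2 pairs and no label for a shared batch they share only a number. With the replicate number as a block, limma called 30 miRNAs, among them miR-125a-5p (adjusted p = 0.00990) and miR-100 (adjusted p = 0.0138). As miR-100 was under 30 in both oncogenic samples and was tested through its normal samples alone, its call is no support for its direction. In the limma block fit of ratios to miR-125b-5p, 59 of 123 miRNAs passed, miR-125a-5p with an adjusted p of 5.73e-09. With 4 samples and a block little is left to estimate spread from, so so small a value is not strong evidence. With the block the limma adjusted p was 0.0905 for miR-99b over miR-99a and 0.530 for miR-99a over miR-100. It was 0.516 for both miR-99b over miR-100 and miR-125a-5p over miR-100. The paired exact test of the difference between loci gave p = 0.500, the smallest that 2 pairs allow. miR-100 and miR-125b-3p had 4 barcodes each in oncogenic replicate 2, and miR-125b-3p had 5 to 7 in the deeper libraries. Alternatives for miR-125a-5p over miR-100, and raising values under 30 to 30, were chosen after seeing the data.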
